A study of Mus musculus with 7 samples.

Results

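The LDL receptor family was followed here through 9 genes in pregnant mouse islets: LRP8 (apolipoprotein E receptor 2), VLDLR, LRP1, LRP2, LRP4, LRP5, LRP6, SORL1 and LRP10. They are the rows of the deposited gene table that carry these names, 9 of 34082, and gene names are written as in that table, mostly as human symbols. LRP8 was included because it was higher in the Prlr+/- mice in this very comparison, so its difference is given as a description, without a test. The other 8 were included for belonging to the family.

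Islet RNA came from 7 C57BL/6 females on day 15 of pregnancy, 1 library per mouse. In 4 βPrlR+/- mice, 1 floxed copy of Prlr (exon 5) had been deleted by Pdx1CreER, a Cre recombinase driven by the Pdx1 promoter and switched on with tamoxifen by gavage. In 3 Prlr+/- mice, 1 copy of Prlr was missing from every tissue, with neither Cre nor tamoxifen. By the methods the groups also came from separate stocks. The Prlr+/- mice descended from a purchased line, and the βPrlR+/- mice from a floxed line, back-crossed to C57BL/6J, and a Pdx1CreER line. Genotype, Cre, tamoxifen and stock therefore cannot be told apart in any difference between the groups. The labels call the conditional deletion homozygous where the methods call it heterozygous, the titles of those 4 mice read CkoWt without explanation, and the labels' age of 3 to 4 months is lower than that in the methods. Islets were hand-picked and kept overnight in culture, so other pancreatic cells could be carried along, and in whole islets fewer cells of a type and less RNA per cell cannot be told apart. No batch was named. The targeted gene PRLR averaged 45.1 ± 8.19 scaled TPM in the βPrlR+/- group (SD, n = 4) and 40.8 ± 8.97 in the Prlr+/- group (SD, n = 3). This difference did not pass the test (limma, adjusted p = 0.9999). By the methods both genotypes lack 1 copy in β-cells, which would not hold for a homozygous deletion as in the labels.

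Members of this family are cell surface receptors built from ligand-binding repeats, and most carry their ligands into endosomes. LRP8 and VLDLR are the reelin receptors, which signal through the adaptor DAB1 and Src-family kinases. LRP5 and LRP6 are Wnt co-receptors, LRP4 takes part in agrin signalling and restrains Wnt signalling, LRP1 and LRP2 are large scavenging receptors, and SORL1 and LRP10 sort cargo inside the cell. Values are TPM, a length-normalised share of all transcripts in a library, divided by a size factor for each mouse, so levels of different genes are per length and comparable. A log2 fold change is always Prlr+/- over βPrlR+/- on log2(scaled TPM + 1), which understates changes of low genes.

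LRP10 was the highest member, with a mean of 35.8 scaled TPM over the 7 mice, above 87.4% of the 14840 genes tested. LRP5 followed at 16.6, VLDLR at 12.5, SORL1 at 8.32 and LRP6 at 8.22. Below them came LRP8 at 5.10, LRP1 at 2.10, LRP4 at 0.308 and LRP2 at 0.00109. LRP10 stood above LRP5 in every mouse without overlap of their ranges, and so did LRP1 above LRP4 and LRP4 above LRP2. LRP5 was above VLDLR in 6 of 7 mice, VLDLR above SORL1 in 6 of 7 and SORL1 above LRP6 in 4 of 7, so the order of SORL1 and LRP6 was not set beyond their spread. LRP6 exceeded LRP8, and LRP8 exceeded LRP1, in 7 of 7 mice although the ranges overlapped. The 9 genes together amounted to 78.7 to 98.3 scaled TPM per mouse.

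**Figure D1:**
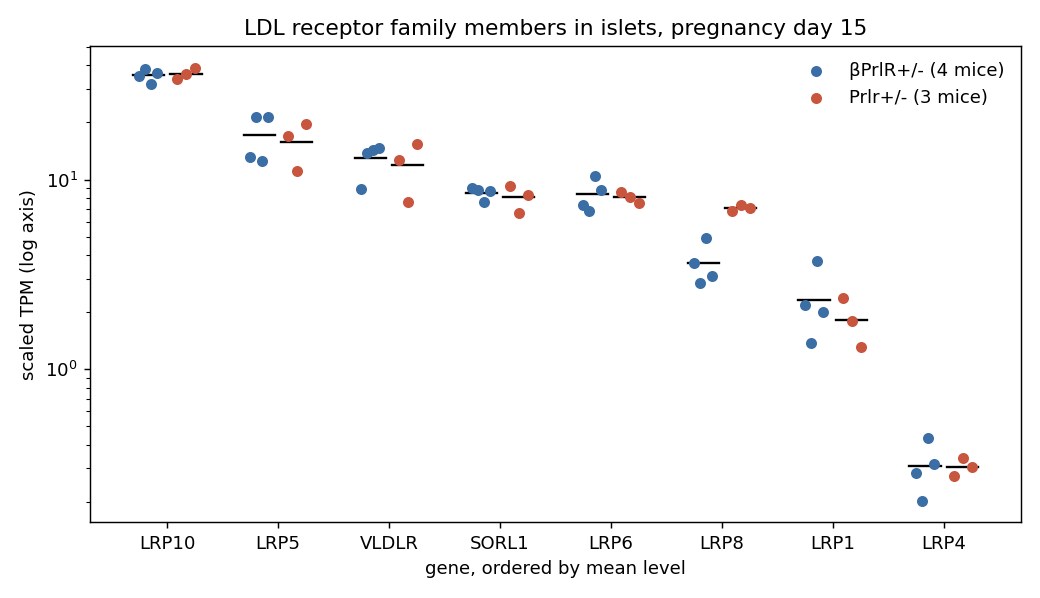
Scaled TPM (log axis) of 8 family members in each mouse, with βPrlR+/- mice in blue, Prlr+/- mice in red and group means as black bars; LRP2, at or near 0 in every mouse, is left out. Only LRP8 has groups that stand apart, at 2.85 to 4.91 against 6.80 to 7.32, and LRP8 was chosen for this difference.

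LRP8 was at 3.64, 2.85, 4.91 and 3.09 scaled TPM in βPrlR+/- mice 1 to 4 and at 6.80, 7.32 and 7.08 in Prlr+/- mice 1 to 3. Each Prlr+/- mouse was above each βPrlR+/- mouse, and the 3 Prlr+/- values lay close together. The group averages were 3.62 ± 0.917 (SD, n = 4) for βPrlR+/- and 7.07 ± 0.260 (SD, n = 3) for Prlr+/-, a ratio of 1.95 and a log2 fold change of 0.82. Among all genes tested, 1.84% had groups that did not overlap with Prlr+/- higher, a background from which nothing is read for a gene chosen by that criterion. LRP8 made up 3.05% to 5.71% of the summed family level in βPrlR+/- mice and 7.21% to 9.31% in Prlr+/- mice. Relative to VLDLR, its fellow reelin receptor, LRP8 was at a ratio of 0.206 to 0.407 in βPrlR+/- mice and of 0.462 to 0.965 in Prlr+/- mice. βPrlR+/- mouse 3 was the nearest to the other group, and without it the log2 fold change of LRP8 was 0.95.

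β-cell markers leaned the same way as LRP8. All 8 β-cell markers measured had a fitted value above 0 in the same direction, with a median log2 fold change of 0.34 beside 0.00 over all genes tested. Of the 8, 0 passed the adjusted threshold, beside 0.0674% of all genes tested, and MAFA alone, with a p of 0.0445 from limma, was under 0.05 unadjusted, beside 4.52%. Their summed level was 449967 to 597634 scaled TPM in βPrlR+/- mice and 579963 to 713845 in Prlr+/- mice, which overlap, and INS, Ins1 and IAPP made up at least 99.8% of it in every mouse. Their mean level on the log2(scaled TPM + 1) scale, which weights the 8 genes alike, was 10.51 to 11.06 and 11.02 to 11.18, which also overlap. None of the 8 was listed at 0.

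Markers of endothelial, α, δ and PP cells leaned the other way. Macrophage markers did not, with 4 of 5 tested fitted above 0, 1 below and a median of 0.06. The 6 endothelial markers were all fitted below 0, with a median of -0.23 and summed levels of 147 to 183 scaled TPM in βPrlR+/- mice and 124 to 156 in Prlr+/- mice, and 0 of 6 passed the adjusted threshold in limma. Of these, PECAM1, PLVAP and CDH5 had an unadjusted p under 0.05, and the groups of PECAM1 and CDH5 did not overlap, beside 3.11% of all genes tested that were lower without overlap. The 4 α-cell markers were also all below 0, with a median of -0.20 and sums of 14592 to 22148 and 14616 to 15140. The 3 δ- and PP-cell markers had a median of -0.22 and sums of 13627 to 16244 against 12101 to 12752, which do not overlap. Their mean level on the log2(scaled TPM + 1) scale was 9.20 to 9.63 and 9.12 to 9.23, which overlap. The groups of SST, HHEX and PPY, taken singly, overlapped as well. None of these 7 α-, δ- and PP-cell markers passed. Neuron markers were mixed, with 1 of 5 tested fitted above 0 and 4 below. Without overlap of the groups, ELAVL4 was higher and 2 were lower, NPY among them. The mean log2 level of all 7 neuron markers was 3.00 to 3.20 and 2.83 to 2.96, which do not overlap. Of 3 Schwann cell markers tested, S100B alone was lower without overlap, with a limma p of 0.0225. The part of any of these cell types in the LRP8 difference was not tested.

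LRP8 was divided over 18 RefSeq transcripts, of which 16 are computer-predicted and 2 curated. Curated transcripts held at most 4.70% of the LRP8 level in any mouse. The predicted transcript XM_011240465.2 led in the average, at 1.45, 0.960, 1.83 and 1.24 scaled TPM in βPrlR+/- mice and 2.83, 4.05 and 2.55 in Prlr+/- mice. XM_011240462.2 came next, at 1.40, 1.22, 1.47 and 0.606 against 1.95, 1.58 and 2.21. Both had groups that did not overlap and together they carried 73.0% of the difference of the means. Their combined share of LRP8 overlapped between the groups, 59.6% to 78.2% in βPrlR+/- mice and 67.2% to 76.9% in Prlr+/- mice. The other 16 transcripts summed to 0.670 to 1.61 and to 1.69 to 2.32 scaled TPM. Of these, XM_011240461.2, at up to 0.315 in βPrlR+/- mice and at least 0.346 in Prlr+/- mice, and XM_011240467.2, at up to 0.0717 and at least 0.184, also had groups apart, and XM_011240458.2 overlapped, at 0.250 to 0.908 and 0.372 to 1.35. Kallisto divides reads between transcripts that share most of their sequence, so the split within LRP8 is less certain than the sum.

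**Figure D2:**
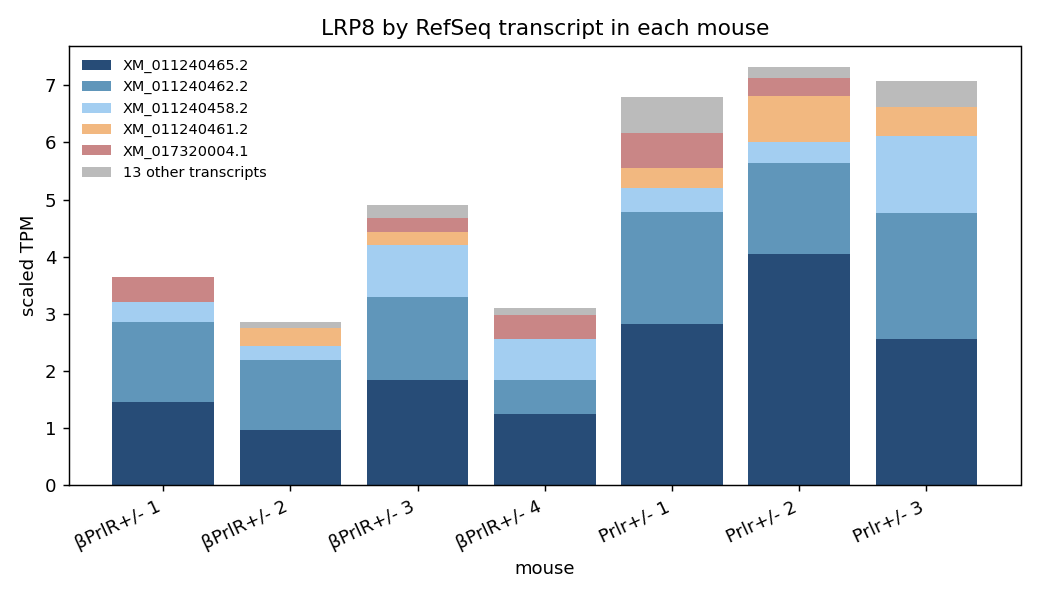
Scaled TPM of LRP8 in each mouse as stacked bars, with the 5 transcripts of highest mean in color and the other 13 in grey. The darkest 2 segments, XM_011240465.2 and XM_011240462.2, are taller in each Prlr+/- mouse than in any βPrlR+/- mouse.

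The promoter of LRP8 is shown because the neighbouring Lrp8os3, annotated to a bidirectional promoter, was also measured. RefSeq promoters (GRCm38.p6, 250 bases before to 50 after an annotated start) were found for 6 of the 9 members, with 10 starts in all and 3 of them for LRP8. The first LRP8 start lies in the window chr4:107802635-107802934, plus strand, and capitals mark the 50 bases after the start.
LRP8 first start: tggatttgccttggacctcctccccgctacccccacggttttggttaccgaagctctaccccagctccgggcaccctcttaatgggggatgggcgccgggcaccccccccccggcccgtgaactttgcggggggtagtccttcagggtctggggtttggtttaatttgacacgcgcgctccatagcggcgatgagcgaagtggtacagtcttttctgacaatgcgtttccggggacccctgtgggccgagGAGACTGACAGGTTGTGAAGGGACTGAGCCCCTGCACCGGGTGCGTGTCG
This window has 62.7% G or C, more than 76.9% of all 32851 promoters in the table, and 21 CG pairs. No match was found on either strand, in this or the other 2 LRP8 windows, to the STAT5 element TTCNNNGAA, the GC box GGGCGG, the TATA box TATAAA or the E-box CACGTG, which occur in 8.30%, 35.7%, 13.6% and 7.15% of all these promoters. STAT5 is the transcription factor that prolactin receptor signalling activates, and for that reason its element was searched. Of the 10 member windows, 2 held the element. They are shown with the match in capitals, LRP1 from chr10:127621099-127621398 and the second SORL1 start from chr9:42077164-42077463, both on the minus strand.
LRP1: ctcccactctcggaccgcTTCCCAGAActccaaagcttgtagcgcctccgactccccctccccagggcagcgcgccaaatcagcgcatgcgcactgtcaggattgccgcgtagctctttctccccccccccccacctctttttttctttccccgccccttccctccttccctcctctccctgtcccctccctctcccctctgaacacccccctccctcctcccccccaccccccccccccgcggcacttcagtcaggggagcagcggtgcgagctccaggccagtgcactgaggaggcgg
SORL1 second start: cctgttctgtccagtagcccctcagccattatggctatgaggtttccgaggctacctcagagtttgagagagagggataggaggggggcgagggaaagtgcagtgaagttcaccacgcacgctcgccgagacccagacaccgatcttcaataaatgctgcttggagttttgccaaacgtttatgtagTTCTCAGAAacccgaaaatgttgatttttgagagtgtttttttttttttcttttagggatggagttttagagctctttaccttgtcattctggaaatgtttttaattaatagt
The matched letters were TTCCCAGAA for LRP1 and TTCTCAGAA for SORL1, and neither gene passed the test between the groups.

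Lrp8os3, a long noncoding RNA, is the gene before LRP8 in RefSeq order. GENCODE places it on the opposite strand and types it as a lncRNA of a bidirectional promoter, and in RefSeq the spans of Lrp8os3 and LRP8 do not overlap, so no stretch of sequence is common to them by position. It was at 3.59, 2.88, 3.38 and 2.96 scaled TPM in βPrlR+/- mice and at 6.88, 4.49 and 4.43 in Prlr+/- mice. Each Prlr+/- mouse again exceeded each βPrlR+/- mouse. The log2 fold change was 0.56 (95% limma interval 0.22 to 0.90), and it did not pass the threshold over all genes (limma, adjusted p = 0.684). Prlr+/- mouse 1 was the highest, and without it the log2 fold change was 0.38. Lrp8os2, an antisense RNA whose span overlaps that of LRP8, was low, at 0.0481 to 0.142 scaled TPM in βPrlR+/- mice and 0.0647 to 0.0988 in Prlr+/- mice. The libraries were strand-specific but whether the read assignment used strand was not given, so reads of Lrp8os2 and LRP8 may be mixed.

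Of the 10 tested genes on each side of LRP8, 2 of 20 had groups that did not overlap, both higher in Prlr+/- mice, beside 1.84% of all genes tested in that direction. The second was DIO1, type 1 deiodinase, which activates thyroid hormone, 4 tested genes before LRP8. DIO1 was at 29.4, 33.5, 33.9 and 39.0 scaled TPM in βPrlR+/- mice and 71.1, 52.5 and 66.7 in Prlr+/- mice, with a log2 fold change of 0.88 (95% limma interval 0.58 to 1.18, adjusted p = 0.125). DIO1 is not covered by the naming rule and was singled out once its values were known. The 3 nearest tested genes were Lrp8os3, the nuclear pore gene NDC1 and YIPF1 on one side, and the exon junction gene MAGOH and the fatty acid oxidation genes CPT2 and SCP2 on the other. NDC1 had a log2 fold change of 0.06, YIPF1 of 0.16, MAGOH of 0.06, CPT2 of -0.01 and SCP2 of -0.01. The 18 neighbours other than Lrp8os3 and DIO1 had a median of 0.00 and ran from -0.08 to 0.21. None of the 20 passed the adjusted threshold in limma, and 2 had an unadjusted p under 0.05, beside 4.52% of all genes tested.

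**Figure D3:**
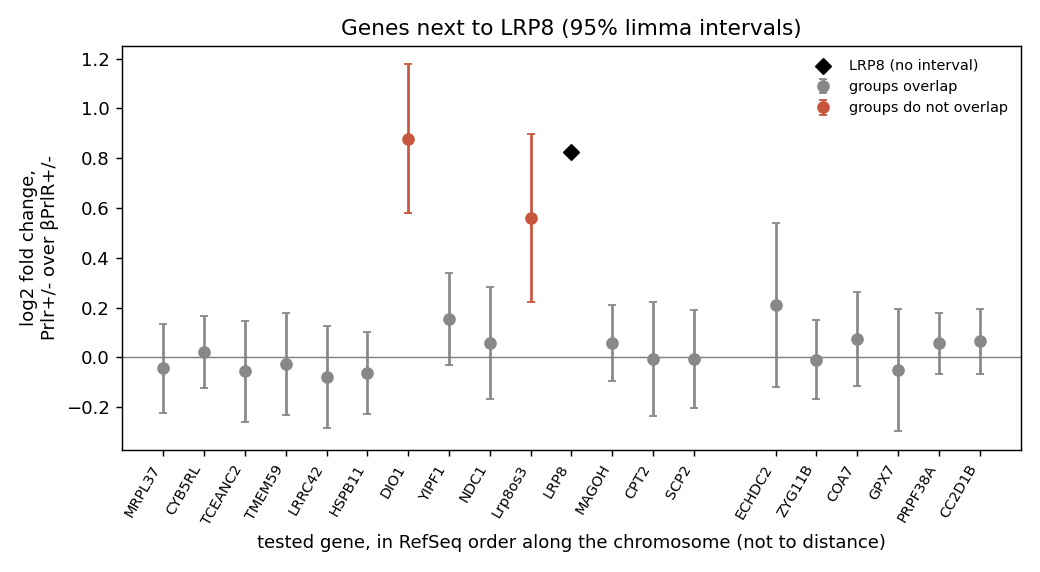
Log2 fold change, Prlr+/- over βPrlR+/-, of the tested genes on either side of LRP8 in RefSeq order with 95% limma intervals; the microRNA row Mir6397, with an interval of -2.09 to 2.12, is left out and LRP8 has no interval. DIO1 at 0.88 and Lrp8os3 at 0.56, in red, have groups without overlap, while YIPF1 and NDC1, which lie between this pair, are at 0.16 and 0.06.

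The genes whose pattern over the 7 mice was nearest to that of LRP8 were SYCE1, a synaptonemal complex gene, Gm30551, MCOLN3, a lysosomal cation channel, SLC2A2, the glucose transporter of β-cells, and Rn28s1, a ribosomal RNA. Their root mean square difference from LRP8, after centring log2 values over the 7 mice, was 0.17, 0.19, 0.19, 0.22 and 0.23, against a median of 0.46 over all genes tested. SLC2A2 was at 225, 152, 252 and 148 scaled TPM in βPrlR+/- mice and 253, 285 and 243 in Prlr+/- mice. Thus the 2 βPrlR+/- mice with more SLC2A2, 1 and 3, were also the 2 with more LRP8. The family stood farther away, from 0.44 for LRP6 and 0.47 for LRP10 to 0.61 for VLDLR and 0.67 for LRP5. Lrp8os3, at 0.26, and DIO1, at 0.27, ranked 14 and 20 among all genes by this measure. Nearness is a description, since LRP8 was chosen for its pattern.

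At the level of the gene, the other members did not separate the groups. Of the 8, LRP2 and LRP4 were under the mean of 0.5 TPM required for testing, and of the 6 tested, 0 passed the threshold in limma and 0 had an unadjusted p under 0.05, beside 0.0674% of all genes tested that passed, 0.00674% higher and 0.0606% lower in Prlr+/- mice. All 6 had overlapping groups, beside 4.95% of genes whose groups did not overlap. Fitted values were below 0 for 5 and above 0 for 1, with a median log2 fold change of -0.09 beside 0.00 for all genes tested. The adjusted p was 0.9999 for each, and the smallest unadjusted p was 0.422, for LRP1. These p-values measure the spread between mice.

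**Figure D4:**
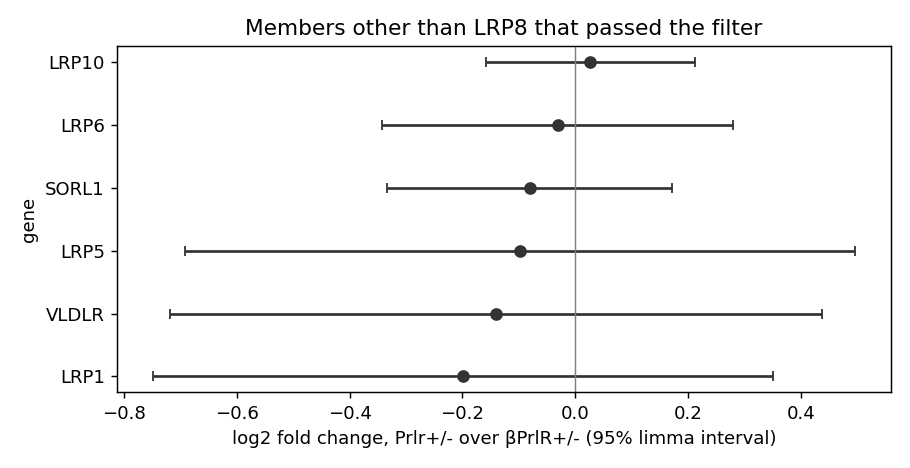
Log2 fold change, Prlr+/- over βPrlR+/-, of the 6 tested members other than LRP8, as points with 95% limma intervals. Every interval includes 0, and they run from -0.75 for LRP1 at the lower end to 0.50 for LRP5 at the upper end.

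VLDLR, the second reelin receptor, was at 8.96, 13.8, 14.3 and 14.6 scaled TPM in βPrlR+/- mice and 12.7, 7.59 and 15.3 in Prlr+/- mice. The lowest mouse of each group was well below its group mates, and the groups overlapped throughout. Its log2 fold change was -0.14 with a 95% limma interval of -0.72 to 0.44. Without Prlr+/- mouse 2 the fitted value turned to 0.13. The curated transcript NM_001161420.1 held 43.7% to 52.1% of VLDLR and XM_006526920.2 held 22.1% to 35.95%, and the noncoding XR_386457.2 varied most, from 2.58% to 23.9%.

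Among the Wnt co-receptors, LRP5 was at 13.2, 21.3, 12.5 and 21.4 scaled TPM in βPrlR+/- mice and 16.9, 11.1 and 19.5 in Prlr+/- mice. It spread nearly as widely within each group as over all 7 mice. The log2 fold change was -0.10 (95% limma interval -0.69 to 0.50). LRP6 was steadier, at 7.33, 6.82, 10.4 and 8.81 in βPrlR+/- mice and 8.55, 8.07 and 7.54 in Prlr+/- mice, with a log2 fold change of -0.03 (-0.34 to 0.28). The highest LRP6 level was in βPrlR+/- mouse 3. The curated transcript of each gene held nearly all of its level, at least 98.3% for LRP5 and 98.8% for LRP6.

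LRP5 was lowest in the mice with the most acinar RNA. Acinar markers, which come from exocrine tissue beside the islets, summed to 33967, 4065, 35310 and 12390 scaled TPM in βPrlR+/- mice and to 11390, 28813 and 14121 in Prlr+/- mice. The 3 mice with the highest sums, βPrlR+/- 1 and 3 and Prlr+/- 2, had the lowest LRP5 levels, 11.1 to 13.2 against 16.9 to 21.4 in the other 4. LRP5 was the only member to split these mice without overlap and is shown for that reason. How many of all genes tested split the same way was not counted, so nothing particular to LRP5 is read from it. The 5 duct markers did not share a direction: in the same 3 mice KRT7 was lowest, at 156 to 206 against 247 to 264 scaled TPM, SOX9 was highest, at 0.194 to 0.252 against 0.0921 to 0.174, and KRT19, CFTR and SPP1 overlapped. Some markers of cells outside the exocrine tissue took the same split. NKX6-1 of β cells was at 155 to 232 in the 3 mice against 98.2 to 151 scaled TPM in the other 4, and IRX2 of α cells, SST of δ cells and the collagens COL1A1, COL1A2 and COL3A1 were likewise higher in the 3 without overlap. VLDLR followed this split in part, at 7.59 to 14.3 against 12.7 to 15.3. Within each group LRP8 was higher in the mice with more acinar RNA, at 3.64 and 4.91 against 2.85 and 3.09 in βPrlR+/- mice and at 7.32 against 6.80 and 7.08 in Prlr+/- mice. The part of exocrine tissue or of these other cells in the levels was not tested.

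**Figure D5:**
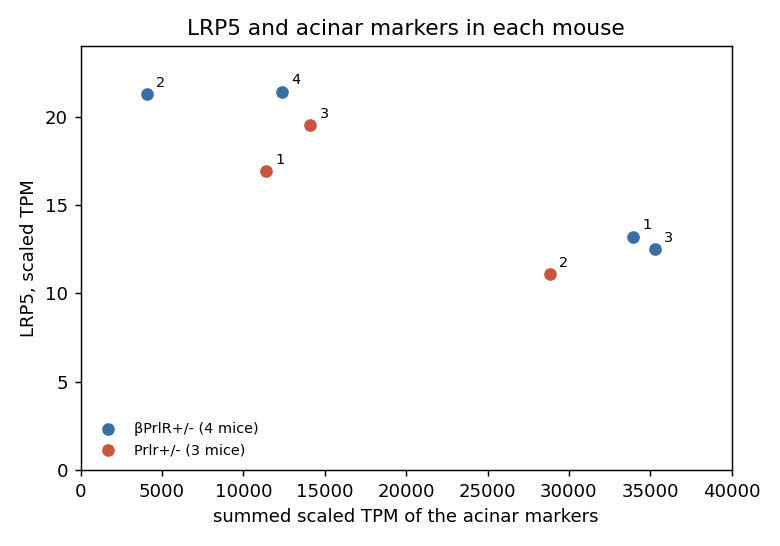
LRP5 in scaled TPM against the summed scaled TPM of the acinar markers in each mouse, numbered within its group, βPrlR+/- in blue and Prlr+/- in red. The 3 mice on the right, with sums of 28813 to 35310, have LRP5 at 11.1 to 13.2, and the other 4 have 16.9 to 21.4, with both groups in each cluster. LRP5 is shown because it alone of the members split this way, and the share of all genes that do so was not counted.

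LRP4, which also binds agrin, was at 0.285, 0.203, 0.432 and 0.315 scaled TPM in βPrlR+/- mice and 0.273, 0.340 and 0.305 in Prlr+/- mice. The Prlr+/- values all fell inside the βPrlR+/- range. LRP2, megalin, an endocytic receptor of kidney tubules, was listed at 0 in 3 of 7 mice and did not exceed 0.00280 scaled TPM in the rest.

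LRP1 was at 2.17, 1.37, 3.70 and 1.999 scaled TPM in βPrlR+/- mice and 2.38, 1.79 and 1.32 in Prlr+/- mice. Its highest value, in βPrlR+/- mouse 3, coincided with the highest sum of the fibroblast and pericyte markers, 19.3 scaled TPM in a range of 7.58 to 19.3 over the 7 mice. The other mice did not keep to that order, since the next highest LRP1, in Prlr+/- mouse 1, came with the lowest marker sum, 7.58, and the lowest LRP1, in Prlr+/- mouse 3, with a sum of 15.3. The log2 fold change was -0.20 (95% limma interval -0.75 to 0.35), and without βPrlR+/- mouse 3 it was -0.02. The part of stromal cells was not tested.

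SORL1, a sorting receptor that also has sortilin-type domains, was at 8.98, 8.80, 7.61 and 8.71 scaled TPM in βPrlR+/- mice and 9.24, 6.68 and 8.24 in Prlr+/- mice. Its log2 fold change was -0.08 (95% limma interval -0.33 to 0.17). LRP10 was the most even member, at 35.3, 38.3, 32.0 and 36.4 in βPrlR+/- mice and 33.8, 35.8 and 38.9 in Prlr+/- mice, the highest mouse 1.22 times the lowest. Its log2 fold change was 0.03 (-0.16 to 0.21). For SORL1 the predicted XM_017313238.1 held 54.9% to 71.4% of the level, and for LRP10 the curated NM_022993.3 held 60.05% to 66.7%. The other LRP10 transcript, the predicted XM_006519358.1, was at 11.6 to 13.3 scaled TPM in βPrlR+/- mice and 13.5 to 13.6 in Prlr+/- mice. These groups were narrowly apart, and the share of all transcripts without overlap was not counted.

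Genes that work with the family were followed in 5 lists, 96 symbols of which 74 were tested. No list had a member past the adjusted threshold in limma, in either direction, and 2 of the 74 genes had an unadjusted p under 0.05, beside 4.52% of all genes tested, so the count is near the background. Both, SORCS2 and DKK3, were lower in Prlr+/- mice without overlap of the groups, beside 3.11% of all genes tested that were lower without overlap.

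Of the other receptors of the family, 9 of 13 were tested, with 2 fitted above 0 and 7 below and a median log2 fold change of -0.03. LRP11, at 90.2 ± 5.08 (SD, n = 4) and 88.2 ± 7.94 (SD, n = 3) scaled TPM, and the sorting receptor SORT1, at 37.6 ± 1.78 and 39.0 ± 1.12, were among the highest. The sortilin-type receptor SORCS2 was at 3.66, 3.20, 4.31 and 4.09 in βPrlR+/- mice and 3.13, 2.97 and 2.56 in Prlr+/- mice. Its groups were close but apart, with a log2 fold change of -0.31 (95% limma interval -0.54 to -0.07, adjusted p = 0.962). LRP3, with a log2 fold change of 0.10, had the smallest p among those fitted higher.

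Of the ligands, 12 of 15 symbols were tested, with 3 fitted above 0 and 9 below and a median of -0.12. Reelin itself, RELN, the ligand of LRP8 and VLDLR, was low, at 0.771, 0.404, 1.05 and 0.702 scaled TPM in βPrlR+/- mice and 0.611, 0.167 and 0.295 in Prlr+/- mice. The groups overlapped, and the log2 fold change of -0.35 (95% limma interval -0.73 to 0.03, adjusted p = 0.9999) did not pass. With a pseudocount of 0.1 in place of 1 it was -0.92. The lysosomal prosaposin PSAP was highest, at 529 ± 68.5 and 555 ± 43.0. Selenoprotein P, SELENOP, a selenium carrier that LRP8 takes up, was at 414 ± 35.6 and 362 ± 33.2 with a log2 fold change of -0.19, APP at 116 ± 5.64 and 106 ± 3.84 with -0.12, and clusterin, CLU, had 0.09.

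The chaperones, sheddases and turnover genes had 11 of 12 symbols tested, 6 above 0 and 5 below, with a median of 0.01. The γ-secretase genes PSENEN and NCSTN, which cut receptor stubs, and the recycling adaptor SNX17 were the highest, with log2 fold changes of 0.08, -0.04 and 0.01. MYLIP, the ubiquitin ligase that sends VLDLR and LRP8 to degradation, was at 3.88 ± 0.517 (SD, n = 4) and 3.25 ± 0.872 (SD, n = 3) scaled TPM, a log2 fold change of -0.21 with an unadjusted limma p of 0.190.

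Adaptors and reelin signalling genes had 21 of 25 tested, with 14 above 0 and 7 below and a median of 0.02. The kinase AKT1 was at 88.7 ± 4.98 (SD, n = 4) and 99.0 ± 9.85 (SD, n = 3) scaled TPM, a log2 fold change of 0.15. The Src-family kinase FYN had -0.11 and the scaffolds MAPK8IP1 and SHC1 had 0.12 and 0.10. None passed the threshold. DAB1, the adaptor of the reelin receptors, was under the filter and not tested, at 0.343, 0.367, 0.293 and 0.413 scaled TPM in βPrlR+/- mice and 0.182, 0.195 and 0.220 in Prlr+/- mice. Its groups did not overlap, with Prlr+/- lower, and it was named after its values had been looked at. The shares of genes without overlap cover tested genes only, so none can be set beside DAB1.

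The Wnt partners of LRP5, LRP6 and LRP4 had 21 of 31 tested, with 8 above 0 and 13 below and a median of -0.02. DKK3, a secreted relative of the Dickkopf inhibitors, was at 1.75, 1.91, 2.04 and 1.89 scaled TPM in βPrlR+/- mice and 0.876, 0.791 and 0.957 in Prlr+/- mice. Its groups were well apart, with little spread in either, and the log2 fold change was -0.63 (95% limma interval -0.81 to -0.45), or -1.04 with a pseudocount of 0.1. It missed the threshold over all genes with an adjusted p of 0.0615 from limma and passed it in 3 of 15 other settings, over which the adjusted p ran from 0.0335 to 0.475. β-catenin, CTNNB1, was at 132 ± 13.7 (SD, n = 4) and 142 ± 10.2 (SD, n = 3) with a log2 fold change of 0.11, the destruction complex scaffold AXIN1 had 0.08 and the Wnt transducer DVL1 had 0.06.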

How the data were processed

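Islet RNA of 7 pregnant mice was measured by RNA-seq. The authors made strand-specific libraries, assigned reads to mouse RefSeq transcripts with kallisto 0.42.4 and deposited values called FPKM, but each mouse's deposited column adds up to 1000000, so the values were taken as TPM. The genome build was not given in the sources used here. The methods give a read total per library as a range, but TPM keeps no read counts per gene, so no counting interval is given. Insulin genes took 46.1% to 58.9% of the TPM, so each column was rescaled by its median ratio to the geometric mean of the mice (size factors 0.882 to 1.11). Genes with a mean of at least 0.5 TPM (14840 of 34082) entered limma 3.58.1 (R 4.3.3) as log2(scaled TPM + 1), with mean-dependent variance, two-sided, Benjamini-Hochberg adjustment over all of them and a threshold of 0.05. The authors' own test needs transcript counts and was not repeated. limma was tested on simulated data. Python 3.11.15, numpy 2.4.6, pandas 2.3.3 and matplotlib 3.10.9 were used. RefSeq (GRCm38.p6) gave promoters and gene order, and GENCODE vM21 the type and strand of Lrp8os3.

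The members and lists were chosen with earlier results of these data known. The text names the 9 members, and of each list the genes past the threshold, the 3 highest and the smallest p in each direction. It also names the 3 tested genes on each side of LRP8 and the 5 nearest patterns. Some list genes are not reported here. Of the marker lists, median log2 fold changes were 0.34 for β-cell, -0.20 for α-cell, -0.22 for δ- and PP-cell, 0.09 for acinar, 0.00 for duct, -0.23 for endothelial, 0.06 for macrophage, -0.12 for fibroblast and pericyte, -0.16 for neuron and -0.27 for Schwann cell markers, and no marker passed the threshold. Alternatives were a robust fit, a pseudocount of 0.1, no rescaling of TPM, rescaling by the upper quartile, keeping genes that reached 0.5 TPM in all 7 mice or any gene above 0, curated transcripts and leaving out each mouse. A size factor over all genes above 0 was added after seeing the data.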

Additional observations from a re-analysis of the deposited data

Results flagged for a closer look

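In βPrlR+/- mouse 1, 4 of the 41 genes looked at stood apart from the other 3 βPrlR+/- mice. The gap to the nearest mouse, over the whole range of the group, exceeded Dixon's critical value for 4 samples. VLDLR was at 8.96 scaled TPM against 13.8 to 14.6. AXIN1 was at 22.1 against 20.3 to 20.6, CLU at 113 against 88.2 to 91.0 and FYN at 5.49 against 5.07 to 5.12. Chance alone marks about 1 in 20 groups. The Prlr+/- group, with 3 mice, is too small for this rule.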

How the results depend on the processing

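LRP8, whose direction its choice fixes, had a log2 fold change over 14 settings of 0.70 (TPM as deposited) to 0.97 (pseudocount of 0.1), and of 0.74 to 0.95 over leaving out each mouse. Curated transcripts alone gave LRP8 no value, because they left it under 0.5 TPM. The counts of other members, of genes next to LRP8 and of the other 4 lists past the threshold stayed at 0 in all 15 settings, and the Wnt partner list reached 1 (DKK3) with at least 0.5 TPM in every mouse, 1 with a pseudocount of 0.1 and 1 in the robust fit. Among all genes tested, 10 passed, against 4 with all genes above 0, 5 with curated transcripts, 18 with a pseudocount of 0.1, 6 with the added size factor over all genes above 0, 6 with upper-quartile scaling and 2 (without βPrlR+/- mouse 4) to 12 (without βPrlR+/- mouse 3) over leaving out each mouse. The neighbours of LRP8 without overlap numbered 2 to 5 over leaving out each mouse, where fewer mice are compared.

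Of the 6 other tested members, 5 changed sign around 0 in at least 1 setting, and LRP1 did not. Over leaving out each mouse, the log2 fold change was -0.026 to 0.073 for LRP10, -0.26 to 0.12 for LRP5, -0.11 to 0.070 for LRP6, -0.17 to 0.033 for SORL1 and -0.34 to 0.13 for VLDLR. LRP1 was -0.35 to -0.02. LRP10 also turned to -0.12 with TPM as deposited and -0.029 with curated transcripts. Without scaling, the median of all genes tested was -0.12, so values in that setting sit lower as a whole. There, AXIN1 was -0.060, CLU was -0.053, CTNNB1 was -0.036, DVL1 was -0.077, LRP3 was -0.043, MAGOH was -0.085, MAPK8IP1 was -0.026, NDC1 was -0.013, PSAP was -0.071, PSENEN was -0.065, SHC1 was -0.042, SNX17 was -0.14 and SORT1 was -0.092. With the added size factor CPT2 was 0.0096 and SCP2 0.0097, and with curated transcripts SNX17 was -0.0027. Leaving out each mouse gave CPT2 -0.064 to 0.10, DVL1 -0.014 to 0.13, LRP11 -0.075 to 0.042, LRP3 -0.0017 to 0.17, NCSTN -0.077 to 0.011, PSAP -0.00076 to 0.14, SCP2 -0.070 to 0.064, SHC1 -0.0020 to 0.15 and SNX17 -0.051 to 0.070. It also gave AXIN1 0.041 to 0.11, CLU 0.056 to 0.17, CTNNB1 0.041 to 0.16 and MAPK8IP1 0.054 to 0.15. AKT1 was 0.11 to 0.24, PSENEN 0.027 to 0.14 and SORT1 0.021 to 0.073. MAGOH was 0.031 to 0.098, NDC1 0.012 to 0.11 and YIPF1 0.090 to 0.23. MYLIP ran from -0.37 (without Prlr+/- mouse 3) to -0.087 (without Prlr+/- mouse 2) and FYN from -0.18 (without Prlr+/- mouse 3) to -0.023 (without Prlr+/- mouse 1). RELN ran from -0.92 (pseudocount of 0.1) to -0.25 (without Prlr+/- mouse 2), and DKK3 from -1.04 (pseudocount of 0.1) to -0.59 (curated transcripts). Of these other genes none but DKK3 was past the threshold. No paired analysis was possible because the mice of the groups are different animals numbered in accession order. Precision at low levels, as for LRP4 and RELN, cannot be read from TPM, which keeps no read counts per gene.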
